A study of Mus musculus with 22 samples.

Results

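Transcripts of 8 CXC chemokine genes, Cxcl1, Cxcl2, Cxcl9, Cxcl10, Cxcl12, Cxcl13, Cxcl14 and Cxcl16, were followed across 22 neonatal mouse livers. The genes were taken by name, and all 8 were present among the 55291 genes of the expected-count and TPM tables. In at least 1 comparison 6 of them passed the filter on low counts, whereas Cxcl13 and Cxcl14 passed it in none.

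CXC chemokines are small secreted proteins, named for a pair of cysteines separated by another residue, that draw leukocytes along a gradient by binding G protein–coupled receptors. Cxcl1 and Cxcl2 act on Cxcr2 of neutrophils and are switched on through NF-κB, Cxcl9 and Cxcl10 act on Cxcr3 of T and NK cells and are switched on by interferons, and Cxcl12 is made at rest by stromal and endothelial cells and holds blood progenitors in place through Cxcr4. Cxcl13 guides B cells through Cxcr5, Cxcl16 is made as a membrane-bound protein that is shed as a ligand of Cxcr6, and Cxcl14 is found mainly in resting epithelia.

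All livers came from male WT C57BL/6 pups that were injected intravenously on postnatal day 1 and killed 36 hours later. A set of 3 vectors carried human ST3GAL5, the sialyltransferase that makes ganglioside GM3. These were rAAV9.CB.ST3GAL5 (rAAV9-ST3GAL5.v1, n = 3), with the ubiquitous CB promoter, rAAV9.CB.ST3GAL5.E332K (the E332K vector, n = 3), whose label adds E332K and which the study's text does not describe, and rAAV9.Syn1.ST3GAL5.miR122BS (rAAV9-ST3GAL5.v2, n = 4), with the neuronal Syn1 promoter and binding sites of the liver microRNA miR-122. The remaining groups had rAAV9.CB.EGFP, which carries EGFP behind the CB promoter (n = 4), the capsid without a genome (AAV9.empty, n = 4) and PBS (n = 4). Litters are not named in the labels, and the tests below therefore weigh a difference against the variation among these pups alone.

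The libraries held 17164502 to 24305788 expected counts. Levels within a gene are given in CPM, counts scaled to the library size. Hepatocyte markers were abundant in every group, lowest with rAAV9-ST3GAL5.v1 (summed 56500 to 67850 CPM, against 80520 to 96540 CPM with AAV9.empty), and no marker of the 10 lists was at 0 throughout a group. A liver of the rAAV9-ST3GAL5.v1 group, replicate 2, stood apart, most of all in Cxcl9, Cxcl10 and genes of the interferon response, so results for this group are given with and without it. Gm47283, a gene on chromosome Y, had no count in the 3 rAAV9-ST3GAL5.v1 livers, in AAV9.empty replicate 4 and in some rAAV9.CB.EGFP and rAAV9-ST3GAL5.v2 livers, and was detected in every E332K and PBS liver. Its absence and the rAAV9-ST3GAL5.v1 vector cannot be told apart in the comparisons with PBS and the E332K vector.

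With rAAV9-ST3GAL5.v1, 5 of the 6 chemokines tested against AAV9.empty were higher, namely Cxcl1, Cxcl2, Cxcl9, Cxcl10 and Cxcl16, and Cxcl12 was lower. For none of these 6 did the levels of the 3 rAAV9-ST3GAL5.v1 livers overlap those of the 4 AAV9.empty livers. How many of all genes show no such overlap was not counted. Of all 14876 genes tested, 13.8% were called higher and 14.3% lower, a call being an adjusted p up to 0.05 in edgeR's quasi-likelihood test. The median log2 fold change was 4.21 over the 6 chemokines and 0.02 over all genes. Cxcl2 passed the filter on low counts only in comparisons that include rAAV9-ST3GAL5.v1, where it was high. Its place in this count and median therefore rests on its level in that group. Without replicate 2 of rAAV9-ST3GAL5.v1 the counts were the same and the median over the 6 was 2.45.

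**Figure D1:**
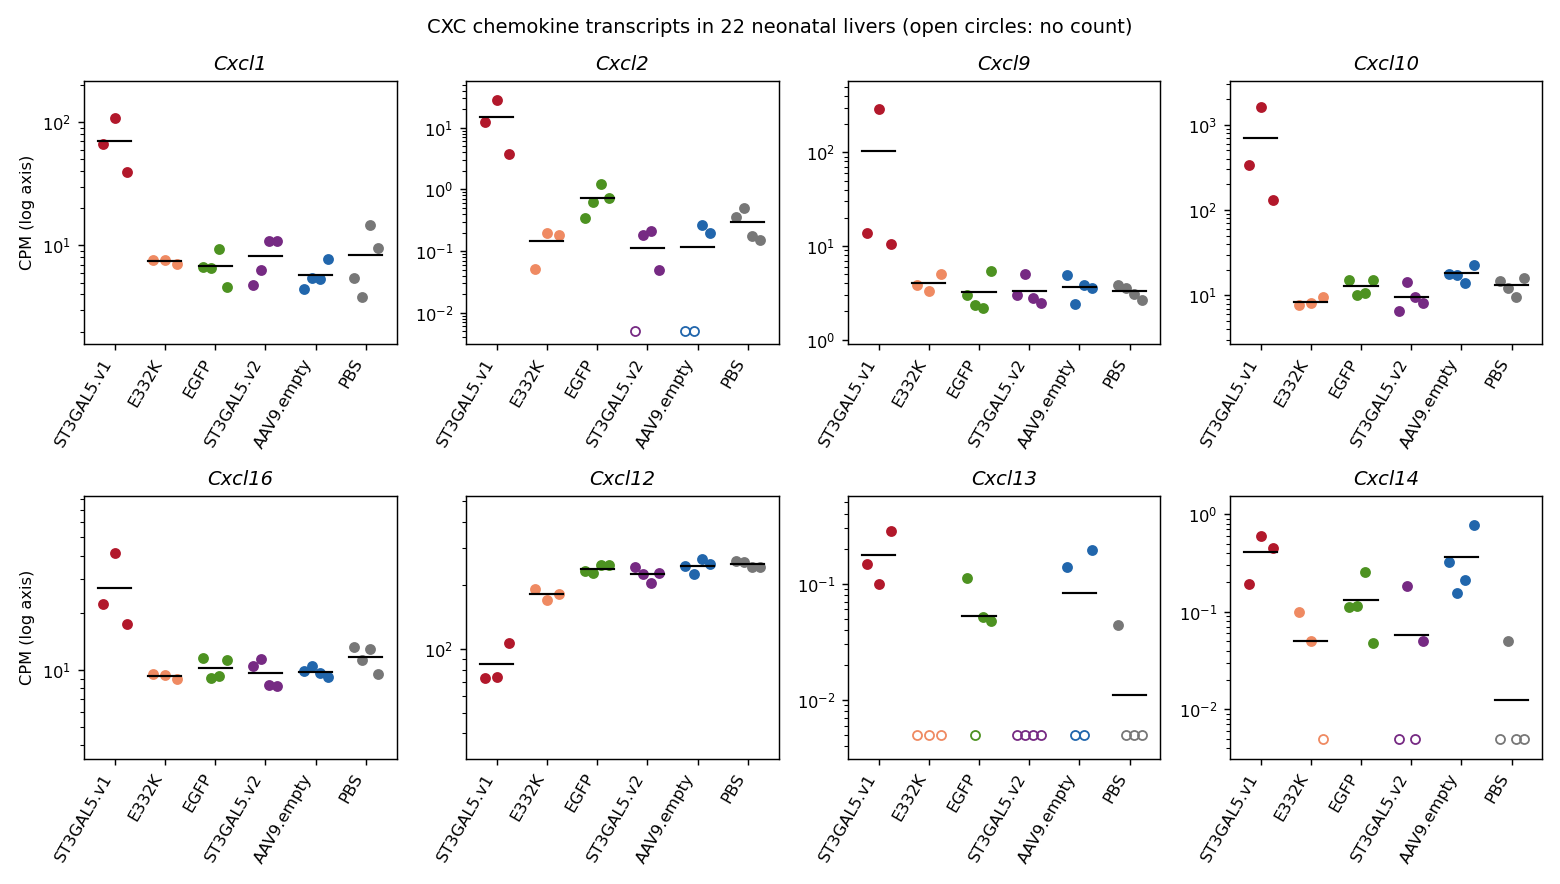
CPM (counts scaled to library size, log axis) of the 8 CXC chemokines in each liver, by treatment group, with group means as lines; open circles, set at an arbitrary height, are livers with no count. Cxcl1, Cxcl2, Cxcl9, Cxcl10 and Cxcl16 are highest and Cxcl12 is lowest in the 3 ST3GAL5.v1 livers, while Cxcl13 and Cxcl14 stay below 1 CPM everywhere.

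Cxcl1 and Cxcl2, the neutrophil attractants, lie 10.8 kb apart on chromosome 5 and both rose. Their promoters, 300 bases around the start of transcription (RefSeq, GRCm38.p6, plus strand), are shown because the pair responded together and carries the same NF-κB motif. Capitals mark matches to the κB consensus, searched on both strands. The Cxcl1 window is chr5:90890995-90891294 and the Cxcl2 window is chr5:90903649-90903948.
Cxcl1: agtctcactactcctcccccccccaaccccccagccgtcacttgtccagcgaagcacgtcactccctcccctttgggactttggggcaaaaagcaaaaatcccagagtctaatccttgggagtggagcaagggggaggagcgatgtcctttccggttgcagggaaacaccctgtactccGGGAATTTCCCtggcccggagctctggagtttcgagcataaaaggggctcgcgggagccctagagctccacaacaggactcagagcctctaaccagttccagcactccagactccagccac
Cxcl2: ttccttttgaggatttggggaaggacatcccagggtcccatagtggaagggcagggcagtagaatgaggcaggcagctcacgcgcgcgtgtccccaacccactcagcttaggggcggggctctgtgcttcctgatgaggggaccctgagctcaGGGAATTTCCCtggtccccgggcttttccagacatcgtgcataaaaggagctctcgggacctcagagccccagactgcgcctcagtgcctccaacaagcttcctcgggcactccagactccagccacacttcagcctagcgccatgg
In both windows the letters GGGAATTTCC on the plus strand overlap a match on the other strand that is shifted by 1 base. They lie at -71 to -62 from the start site of Cxcl1 and at -97 to -88 from that of Cxcl2. A κB match was found in 4.51% of 32851 promoters of this length. A match describes the letters and is not a measurement of binding.

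Cxcl1 (chromosome 5, 90891241 to 90893115 in GRCm38) had 66.0, 108 and 39.2 CPM in the rAAV9-ST3GAL5.v1 livers, against 4.45, 5.43, 5.31 and 7.80 CPM with AAV9.empty. Every rAAV9-ST3GAL5.v1 liver was above every other liver of the study, which spanned 3.82 to 14.6 CPM. On the log2 scale the difference was 3.61 (SE 0.32, adjusted p = 0.000163), a 12.2-fold increase. Without replicate 2 it was 3.18 (adjusted p = 1.57e-05).

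Cxcl2 (chromosome 5, 90903871 to 90905938) was nearly silent outside the rAAV9-ST3GAL5.v1 group. The rAAV9-ST3GAL5.v1 livers had 259, 571 and 91 expected counts, or 12.6, 28.6 and 3.71 CPM, against 0, 0, 5 and 4 expected counts with AAV9.empty, or 0, 0, 0.268 and 0.194 CPM. Even the lowest rAAV9-ST3GAL5.v1 liver was above the highest of the other 19 livers, at 1.24 CPM. The fitted log2 fold change of 6.96 (SE 0.89, adjusted p = 0.000784) rests on 9 counts over the 4 AAV9.empty livers, and without replicate 2 it was 6.08 (adjusted p = 0.000288). Of the 2121 stretches of 31 bases in Cxcl2 transcripts, 161 also occur in Cxcl3, a neighbouring neutrophil attractant, but Cxcl3 itself had at most 0.751 CPM in any liver.

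Cxcl9 and Cxcl10, the ligands of Cxcr3, lie 18.6 kb apart on the same chromosome and also rose, with the largest spread between livers. Their promoters (RefSeq, GRCm38.p6, minus strand) are shown because the genes are neighbours and peaked in the same liver but differ in the motifs of their windows. Capitals mark κB matches and a pair of GAAA with any 2 bases between them, a form of the interferon response element. Both motifs were searched on both strands. The Cxcl9 window is chr5:92328030-92328329 and the Cxcl10 window is chr5:92348840-92349139.
Cxcl9: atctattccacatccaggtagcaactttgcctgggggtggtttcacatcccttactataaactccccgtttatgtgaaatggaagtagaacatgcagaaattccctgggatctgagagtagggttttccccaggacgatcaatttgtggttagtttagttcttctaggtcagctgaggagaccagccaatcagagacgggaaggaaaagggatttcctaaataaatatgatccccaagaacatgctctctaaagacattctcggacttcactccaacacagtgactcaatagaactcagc
Cxcl10: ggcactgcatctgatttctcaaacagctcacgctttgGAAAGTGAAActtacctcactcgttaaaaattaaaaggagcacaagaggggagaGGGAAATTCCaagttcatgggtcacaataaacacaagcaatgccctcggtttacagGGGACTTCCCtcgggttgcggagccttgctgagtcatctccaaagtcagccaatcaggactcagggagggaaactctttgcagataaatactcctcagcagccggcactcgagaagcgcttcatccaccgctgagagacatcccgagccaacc
The Cxcl10 window holds GAAAGTGAAA at -213 to -204, GGGAAATTCC at -159 to -150 and GGGACTTCCC at -103 to -94. Neither motif was found in the Cxcl9 window, which says only that these letters are not in these 300 bases. The GAAA pair occurred in 3.44% of the promoters.

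Cxcl10 (chromosome 5, 92346638 to 92348889) reached 338, 1623 and 132 CPM in the rAAV9-ST3GAL5.v1 livers, against 17.9, 17.4, 13.9 and 23.0 CPM with AAV9.empty. The lowest rAAV9-ST3GAL5.v1 liver was far above the highest AAV9.empty liver, and replicate 2 was far above both of its companions. Cxcl10 was thus 38.2-fold higher (log2 fold change 5.25, SE 0.74, adjusted p = 0.00115). Without replicate 2 the difference was 12.8-fold, a log2 fold change of 3.68 (adjusted p = 3.38e-05). Of 2305 stretches of 31 bases, 103 are shared with the overlapping gene Art3, which was at 0.489 to 1.6 CPM in rAAV9-ST3GAL5.v1 livers and at 0.436 to 0.912 CPM with AAV9.empty.

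Cxcl9 (chromosome 5, 92321347 to 92328079) had levels of 13.9, 289 and 10.6 CPM in the rAAV9-ST3GAL5.v1 livers, against 4.87, 2.40, 3.81 and 3.54 CPM with AAV9.empty. All 3 livers were above the other 19 livers of the study (2.17 to 5.44 CPM), but most of the group mean came from replicate 2. With all livers it was 28.1-fold higher (log2 fold change 4.81, SE 1.09, adjusted p = 0.0106), and without replicate 2 it was 3.31-fold higher (1.73, adjusted p = 0.000639). The call was missed with a robust dispersion (adjusted p = 0.0663), with the replicate number as a block (0.0906) and with limma on TPM (0.0714 to 0.145), and DESeq2 gave Cxcl9 no adjusted p.

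Cxcl16 (chromosome 11, 70453983 to 70459984), a transmembrane chemokine that also binds oxidized lipoproteins, was at 22.2, 41.4 and 17.5 CPM in the rAAV9-ST3GAL5.v1 livers, against 9.87, 10.4, 9.60 and 9.16 CPM with AAV9.empty. The groups did not overlap, and the order of the 3 livers was that of the other risen chemokines. Cxcl16 rose by 1.45 on the log2 scale (SE 0.25, adjusted p = 0.00305), and by 1.01 without replicate 2 (adjusted p = 0.000422). Cxcl16 shares 522 of 2819 stretches with Zmynd15, an overlapping gene that was at 2.4 to 6.51 CPM with rAAV9-ST3GAL5.v1 and at 1.51 to 2.41 CPM with AAV9.empty. The libraries do not mark strand, so reads of the shared part cannot be assigned with certainty.

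Cxcl12 moved the other way, with 72.8, 74.0 and 107 CPM in the rAAV9-ST3GAL5.v1 livers, against 246, 227, 266 and 252 CPM with AAV9.empty. The highest rAAV9-ST3GAL5.v1 liver was below the lowest of the other 19 livers, at 171 CPM. Its log2 fold change was -1.56 (SE 0.14, adjusted p = 0.000169) and -1.48 without replicate 2 (adjusted p = 0.000108), so its size hardly depended on that liver. The promoter of Cxcl12 (chr6:117168285-117168584, plus strand) is shown because this chemokine fell. Its window holds neither motif, like those of Cxcl9 and Cxcl13, while that of Cxcl14 holds a GAAA pair at -172 to -163. The part of either motif in these levels was not tested.
Cxcl12: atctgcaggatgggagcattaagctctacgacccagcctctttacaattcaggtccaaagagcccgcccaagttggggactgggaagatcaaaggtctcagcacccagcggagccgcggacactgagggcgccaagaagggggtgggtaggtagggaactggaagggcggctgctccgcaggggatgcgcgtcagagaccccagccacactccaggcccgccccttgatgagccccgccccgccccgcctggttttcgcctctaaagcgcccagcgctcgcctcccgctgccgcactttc
Cxcl12 lies on chromosome 6 (117168535 to 117181367), away from the cluster of inducible chemokines on chromosome 5. In bulk tissue, fewer cells of a type and less RNA per cell cannot be told apart. Markers of stellate cells and fibroblasts, which make Cxcl12, summed to 779 to 886 CPM with rAAV9-ST3GAL5.v1 and 732 to 895 CPM with AAV9.empty, and 1 of the 8 was higher (Des) and 1 lower (Reln), with Lrat as well among the higher ones without replicate 2. Markers of sinusoidal endothelial cells summed to 341 to 412 CPM and 392 to 478 CPM, with 2 of 8 higher (Lyve1, Fcgr2b) and 3 lower (Stab1, Stab2, Oit3). In the same comparison 13.8% of all genes were higher and 14.3% lower. The part of these cells in the lower Cxcl12 was not tested.

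**Figure D2:**
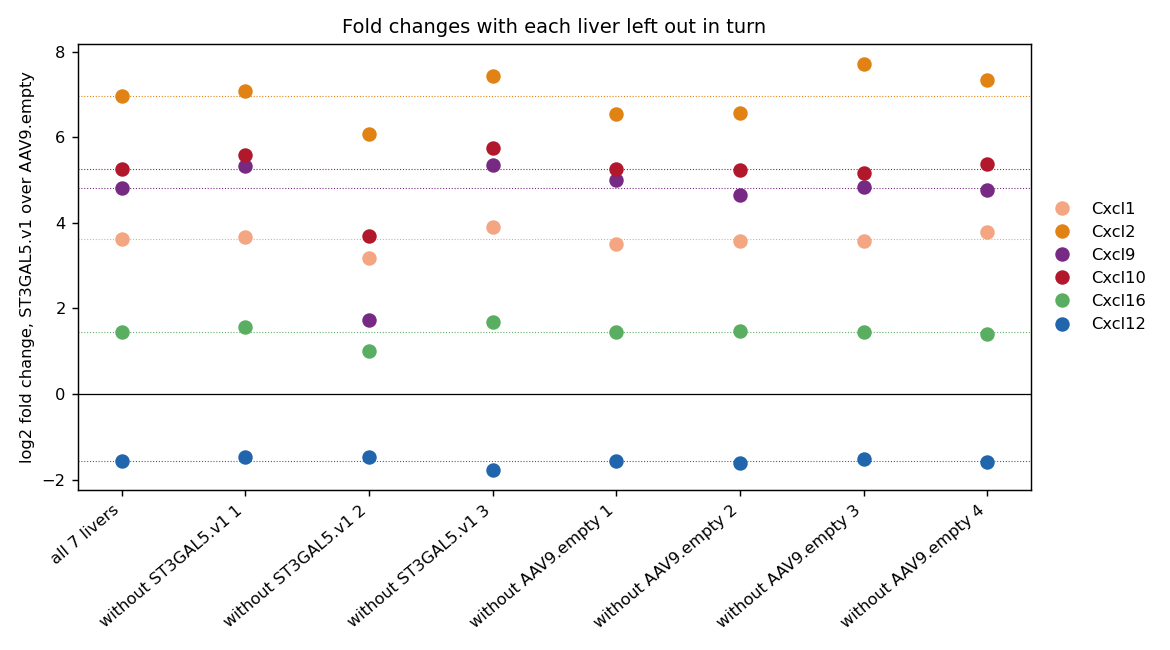
Log2 fold changes of the 6 tested chemokines with rAAV9-ST3GAL5.v1 over AAV9.empty, with all 7 livers and with each left out in turn; dotted lines mark the value with all livers. Leaving out ST3GAL5.v1 replicate 2 moves Cxcl9 to 1.73 and Cxcl10 to 3.68, while no other omission moves either by as much.

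These calls had a limit that leaving out livers does not show. With the presence of Gm47283 as a covariate, which sets the rAAV9-ST3GAL5.v1 livers against AAV9.empty replicate 4 alone, the direction of all 6 was kept but of the 5 higher chemokines only Cxcl1 passed (adjusted p = 0.0253), and Cxcl12 stayed lower (adjusted p = 0.0119). In that fit Cxcl2 had an adjusted p of 0.0713, Cxcl10 0.0951, Cxcl16 0.092 and Cxcl9 0.231.

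The make-up of the family differed as well. Levels of different genes are compared here in TPM, which corrects for transcript length. In the 19 livers of the other 5 groups Cxcl12 led with 76.8 to 127 TPM and held 69.2% to 82.1% of the summed TPM of the 8 genes, followed by Cxcl10 (8.13 to 30.9 TPM), Cxcl1 (4.89 to 20.8 TPM) and Cxcl16 (4.59 to 8.46 TPM). The ranges of Cxcl10, Cxcl1 and Cxcl16 overlap, so only the place of Cxcl12 is clear in every liver. Cxcl9 had 0.9 to 2.14 TPM and Cxcl2 at most 2.95 TPM.

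In the rAAV9-ST3GAL5.v1 livers Cxcl10 led instead, with 474, 2193 and 192 TPM, or 58.3% to 85.2% of the sum. Cxcl1 came next with 98.5, 154 and 61.5 TPM, and Cxcl12, at 36.7, 35.1 and 54.1 TPM, held 1.36% to 16.5%. Cxcl9 reached 122 TPM in replicate 2 but 6.15 and 4.70 TPM in replicates 1 and 3, where it was below Cxcl16 (16.3 and 11.3 TPM). The summed TPM of the 8 genes was 329 to 2575 with rAAV9-ST3GAL5.v1 and 141 to 173 with AAV9.empty.

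**Figure D3:**
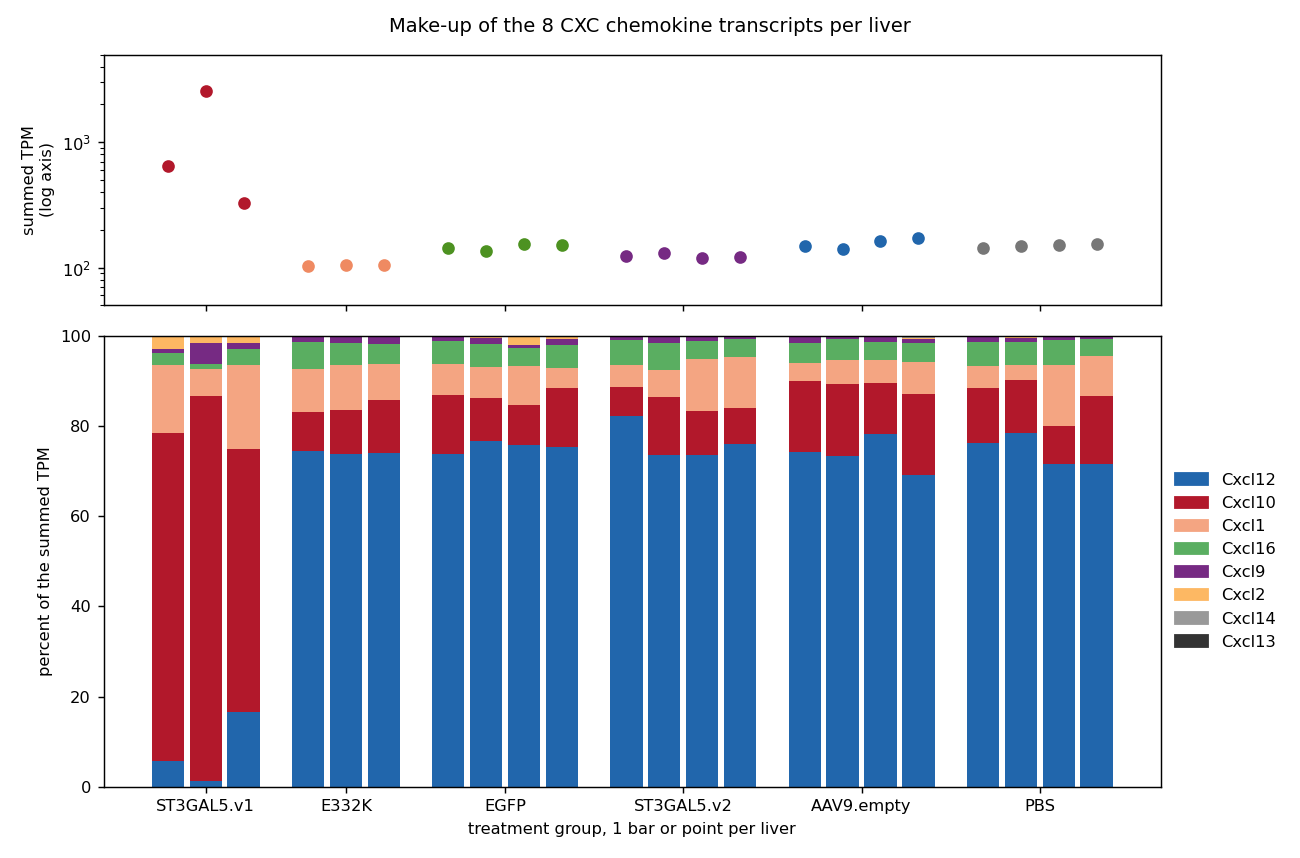
Summed TPM of the 8 CXC chemokines (top, log axis) and the percent of it held by each gene (bottom), 1 point and 1 bar per liver, by treatment group. Cxcl12 holds 69.2% to 82.1% in every liver outside ST3GAL5.v1, where Cxcl10 takes 58.3% to 85.2%.

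The same 6 genes were called in the same directions when rAAV9-ST3GAL5.v1 was set against each of the other groups. Of all genes tested, 12.4% were higher and 12.7% lower against PBS, 12.7% and 15.1% against rAAV9.CB.EGFP, 12.1% and 11.3% against rAAV9-ST3GAL5.v2, and 9.55% and 10% against the E332K vector. For none of the 6 genes did the rAAV9-ST3GAL5.v1 livers overlap the other group. The share of all genes without overlap was not counted here either. These comparisons share the 3 rAAV9-ST3GAL5.v1 livers, so they are not independent.

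Against rAAV9.CB.EGFP, which differs in cargo behind the same promoter, the log2 fold changes were 3.37 for Cxcl1, 4.31 for Cxcl2, 4.97 for Cxcl9, 5.75 for Cxcl10, 1.37 for Cxcl16 and -1.53 for Cxcl12 (adjusted p from 0.000341 to 0.0117). Against rAAV9-ST3GAL5.v2, which also carries ST3GAL5 but behind a neuronal promoter, they were 3.13, 7.04, 5.02, 6.20, 1.51 and -1.41 in the same order of genes (adjusted p from 0.000701 to 0.0129). Against the E332K vector they were 3.27, 6.67, 4.70, 6.38, 1.55 and -1.09 (adjusted p from 0.00268 to 0.0336). Against PBS they were 3.06, 5.62, 4.97, 5.72, 1.19 and -1.60 (adjusted p from 7.72e-05 to 0.00798). Without rAAV9-ST3GAL5.v1 replicate 2, Cxcl9 had log2 fold changes of 1.62 to 1.91 and Cxcl10 of 4.15 to 4.82 in these 4 comparisons, and all 6 genes kept their calls. Against the E332K vector, Cxcl9 missed the threshold without E332K replicate 1, 2 or 3 (adjusted p from 0.105 to 0.118), and Cxcl16 without E332K replicate 3 (adjusted p = 0.0561).

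**Figure D4:**
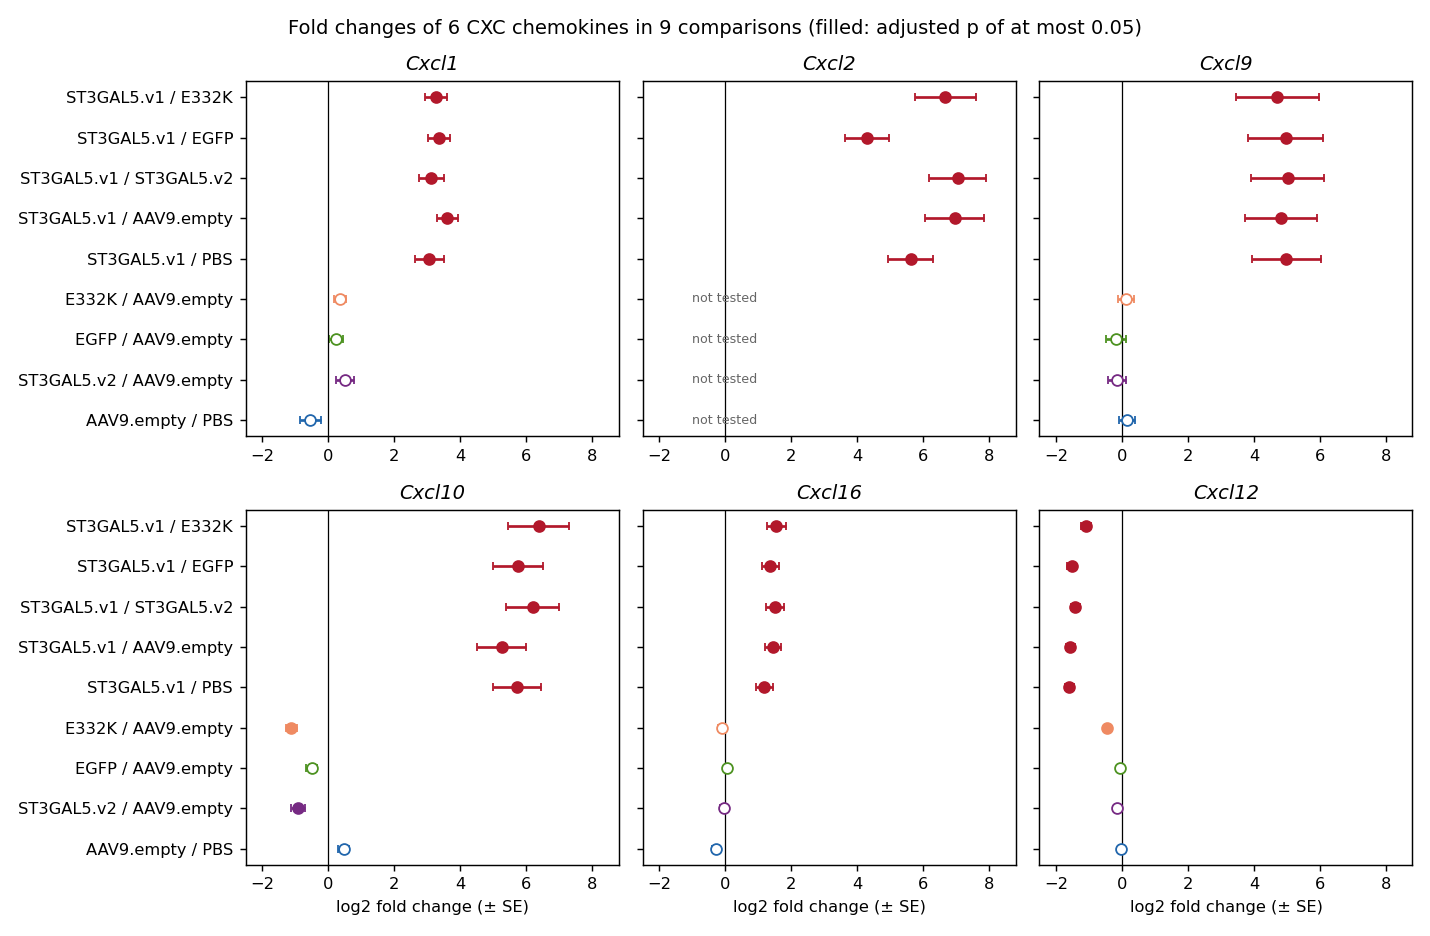
Log2 fold changes (points) with standard errors (bars) of the 6 tested chemokines in 9 comparisons, first-named group over second-named; filled points passed an adjusted p of 0.05. The 5 comparisons of ST3GAL5.v1 are filled for all 6 genes, and among the others only Cxcl10 and Cxcl12 with E332K and Cxcl10 with ST3GAL5.v2 are filled, all below 0.

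With the E332K vector none of these increases was called. Of 5 chemokines tested against AAV9.empty, 0 were higher and 2 were lower, Cxcl10 and Cxcl12, where 7.93% of 14759 genes were higher and 7.09% lower. Cxcl10 was at 7.75, 8.06 and 9.61 CPM, against 17.9, 17.4, 13.9 and 23.0 CPM with AAV9.empty (log2 fold change -1.11, SE 0.16, adjusted p = 0.000778). The groups did not overlap. The lowest PBS liver, at 9.57 CPM, was within the E332K range, and the other PBS livers were at 14.7, 12.2 and 15.9 CPM. Of 10 Kupffer cell and monocyte markers, 3 were lower (Clec4f, Timd4, Csf1r) and 1 higher (Ly6c2), with sums of 739 to 922 CPM with the E332K vector and 934 to 1319 CPM with AAV9.empty, and their part in the lower Cxcl10 was not tested.

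Cxcl12 was at 191, 171 and 183 CPM with the E332K vector, against 246, 227, 266 and 252 CPM with AAV9.empty. Cxcl12 fell by 0.46 on the log2 scale (SE 0.09, adjusted p = 0.00566), and no E332K liver reached the AAV9.empty range. Of 8 markers of stellate cells and fibroblasts, 4 were lower (Ngfr, Col3a1, Col1a1, Reln) and 0 higher, where 7.09% of all genes were lower. The 8 summed to 496 to 684 CPM with the E332K vector and 732 to 895 CPM with AAV9.empty. The others, Lrat, Dcn, Pdgfrb and Des, averaged 13.8, 110, 17.8 and 9.97 CPM against 13.4, 105.5, 17.8 and 10.7 CPM. The part of these cells in the lower Cxcl12 was not tested. Cxcl1, at 7.65, 7.56 and 7.10 CPM (log2 fold change 0.36, adjusted p = 0.223), Cxcl9 (0.13, adjusted p = 0.779) and Cxcl16 (-0.08, adjusted p = 0.686) did not pass. Cxcl2 had 1, 4 and 3 expected counts in the E332K livers and was not tested. Fitted with all 6 groups together, Cxcl10 missed the threshold (adjusted p = 0.176).

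With rAAV9-ST3GAL5.v2, 0 of 5 chemokines were higher than with AAV9.empty and 1 was lower, where 2.88% of 14558 genes were higher and 2.5% lower. That gene was Cxcl10, at 6.50, 14.3, 9.57 and 8.14 CPM against 17.9, 17.4, 13.9 and 23.0 CPM with AAV9.empty. Replicate 2 of rAAV9-ST3GAL5.v2 lay within the AAV9.empty range, and the group overlapped the PBS livers (9.57 to 15.9 CPM). Among the 5 groups other than rAAV9-ST3GAL5.v1, AAV9.empty had the highest mean, at 18.1 CPM. Cxcl10 fell by 0.92 on the log2 scale (SE 0.21, adjusted p = 0.0281), and the call was lost without any of AAV9.empty replicates 1, 2 and 4 or of rAAV9-ST3GAL5.v2 replicates 1 and 4 (adjusted p from 0.0686 to 0.0797). Fitted with all 6 groups together, Cxcl10 also missed the threshold (adjusted p = 0.288). Of 10 Kupffer cell and monocyte markers, 4 were lower (Adgre1, Timd4, Cd5l, Csf1r) and 0 higher, with sums of 716 to 826 CPM with rAAV9-ST3GAL5.v2 and 934 to 1319 CPM with AAV9.empty. Their part in the lower Cxcl10 was not tested. The others had log2 fold changes of 0.51 for Cxcl1 (adjusted p = 0.284), -0.16 for Cxcl9, -0.14 for Cxcl12 and -0.03 for Cxcl16, none of which passed, and Cxcl2 had 0, 3, 4 and 1 expected counts.

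With rAAV9.CB.EGFP, 0 of 5 chemokines were called against AAV9.empty by edgeR, where 0.387% of 14473 genes were higher and 0.0553% lower. Cxcl10 had a log2 fold change of -0.50 (adjusted p = 0.225), with an unadjusted p of 0.00843, which alone of the 5 was below 0.05, and DESeq2 also called 0. Cxcl2 was left out by the filter. It had 6, 11, 24 and 15 expected counts with rAAV9.CB.EGFP, or 0.338, 0.633, 1.24 and 0.715 CPM, against 0, 0, 5 and 4 with AAV9.empty. These groups did not overlap, but without the filter the adjusted p was 0.190.

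Between AAV9.empty and PBS, 0 of 5 chemokines were called by edgeR, where 0.104% of 14476 genes were higher and 0.207% lower. Unadjusted p-values were below 0.05 for 2 of them, Cxcl10 (log2 fold change 0.47, adjusted p = 0.229) and Cxcl16 (-0.27, adjusted p = 0.388), and DESeq2, which gave no adjusted p for Cxcl9, called 0. Cxcl1 varied several-fold among PBS livers, at 5.46, 3.82, 14.6 and 9.62 CPM, against 4.45, 5.43, 5.31 and 7.80 CPM with AAV9.empty.

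Cxcl13 and Cxcl14 were at the limit of detection. A count of 0 allows up to 3 counts, which is 0.122 to 0.184 CPM in these libraries. Cxcl13 (chromosome 5, 95956951 to 95961068) had 3, 2 and 7 expected counts with rAAV9-ST3GAL5.v1, 3, 0, 0 and 4 with AAV9.empty, and 0 in all E332K and rAAV9-ST3GAL5.v2 livers. No difference in Cxcl13 was detectable at this depth.

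Cxcl14 (chromosome 13, 56288643 to 56296551) had 4, 12 and 11 expected counts with rAAV9-ST3GAL5.v1, 7, 3, 4 and 16 with AAV9.empty and 0, 1, 0 and 0 with PBS. Every liver of the first 2 groups was above every PBS liver. The totals were 27 counts with rAAV9-ST3GAL5.v1, 30 with AAV9.empty and 1 with PBS. Without the filter on low counts, the adjusted p against PBS was 0.0126 with rAAV9-ST3GAL5.v1 and 0.0566 with AAV9.empty, and with a single PBS count no fold is given. The other vectors had 3 counts (E332K), 10 (rAAV9.CB.EGFP) and 4 (rAAV9-ST3GAL5.v2) in all.

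Receptors of CXC chemokines and the atypical receptors Ackr1, Ackr2, Ackr3 and Ackr4, not all of them receptors of these ligands, were counted as 1 list. Of 9 receptors tested, 3 were higher with rAAV9-ST3GAL5.v1 than with AAV9.empty and 0 were lower. Their median log2 fold change was 0.45, and 13.8% of all genes were higher and 14.3% lower. Against PBS 3 of 9 were higher and 1 lower (12.4% and 12.7% of all genes), and against rAAV9.CB.EGFP 3 were higher (12.7% of all genes). Against rAAV9-ST3GAL5.v2 1 was higher and 1 lower (12.1% and 11.3%), and against the E332K vector 1 was higher (9.55%). With 9 receptors, a count of 1 is near these shares. The receptor lower against PBS was Ackr4, which averaged 0.370 CPM with rAAV9-ST3GAL5.v1 and 1.35 CPM with PBS. Cxcr2, the neutrophil receptor of Cxcl1 and Cxcl2, was at 12.6, 13.1 and 10.4 CPM, against 4.91, 4.43, 4.61 and 4.89 CPM with AAV9.empty (log2 fold change 1.34, SE 0.13, adjusted p = 0.000221). The groups were well separated and the spread was small. Ackr1, an atypical receptor of red cells and venules that binds many chemokines, had a log2 fold change of 0.63 (adjusted p = 0.00769) and Cxcr4, the receptor of Cxcl12, of 0.45 (adjusted p = 0.00949). Cxcr4 averaged 29.3 CPM with rAAV9-ST3GAL5.v1, 28.1 CPM with the E332K vector, 27.0 CPM with rAAV9-ST3GAL5.v2, 20.8 CPM with rAAV9.CB.EGFP, 21.3 CPM with AAV9.empty and 27.0 CPM with PBS. Against PBS (log2 fold change 0.10, adjusted p = 0.533), rAAV9-ST3GAL5.v2 (0.13, adjusted p = 0.476) and the E332K vector (0.07, adjusted p = 0.725) it did not pass.

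Cxcr3, the receptor of Cxcl9 and Cxcl10, was at 1.90, 0.751 and 2.36 CPM with rAAV9-ST3GAL5.v1 and at 1.85, 1.98, 0.965 and 0.630 CPM with AAV9.empty (log2 fold change 0.29, adjusted p = 0.689). The liver with the most Cxcl9 and Cxcl10, replicate 2, had the least Cxcr3 of its group. Cxcr6, the receptor of Cxcl16, was at 1.76, 2.0 and 0.733 CPM with rAAV9-ST3GAL5.v1 and at 0.371, 1.04, 0.59 and 0.775 CPM with AAV9.empty (adjusted p = 0.103), and Ackr3, which scavenges Cxcl12, had a log2 fold change of 0.11 (adjusted p = 0.691). With the E332K vector 1 of 9 receptors was higher than with AAV9.empty, Cxcr4 (log2 fold change 0.38, adjusted p = 0.0351), where 7.93% of all genes were higher. Its E332K range of 24.3 to 32.0 CPM overlapped the PBS range of 24.0 to 28.5 CPM.

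Markers of leukocytes, which carry these receptors, were counted as well. With rAAV9-ST3GAL5.v1 against AAV9.empty, 13.8% of all genes were higher and 14.3% lower. Of 10 neutrophil markers, 9 were higher with rAAV9-ST3GAL5.v1 than with AAV9.empty, and their sum was 2284 to 2664 CPM against 1544 to 1692 CPM. The exception was Ly6g (log2 fold change -0.26, adjusted p = 0.484). Against PBS 8 of the 10 were higher, but only 3 were against rAAV9.CB.EGFP, with a sum of 1680 to 2356 CPM, and 3 against the E332K vector, with 1891 to 2355 CPM. Over all genes, 12.4% were higher against PBS, 12.7% against rAAV9.CB.EGFP and 9.55% against the E332K vector. With the E332K vector, where no CXC chemokine was higher, 4 of the 10 were higher than with AAV9.empty (S100a8, S100a9, Camp, Ngp) and 1 was lower (Mmp8). In that comparison 7.93% of all genes were higher and 7.09% lower. Of 7 T and NK cell markers tested with rAAV9-ST3GAL5.v1 against AAV9.empty, 4 were higher (Nkg7, Ncr1, Gzma, Gzmb) and 1 lower (Cd4). Their sum was 87.6 to 103 CPM against 39.8 to 54.7 CPM. Of 10 Kupffer cell and monocyte markers, 3 were higher (Ly6c2, Ccr2, Itgam) and 4 lower (Clec4f, Timd4, Vsig4, Csf1r), with sums of 815 to 1178 CPM and 934 to 1319 CPM. Of 6 B cell markers 0 were called, with adjusted p of 0.416 and above. Of 7 erythroid markers 1 was higher (Slc4a1), and of 6 megakaryocyte and platelet markers 0 were called. Without replicate 2 the counts of neutrophil and of Kupffer cell and monocyte markers were the same, Cd4 missed the threshold (adjusted p = 0.0628) and 1 B cell marker, Cd79b, was lower (-0.68, adjusted p = 0.0464). The part of any of these cells in the chemokine transcripts was not tested.

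Genes of NF-κB signalling, which drives Cxcl1 and Cxcl2, were higher in all 12 members tested with rAAV9-ST3GAL5.v1 against AAV9.empty. Their median log2 fold change was 1.88, and 13.8% of all genes were higher. Il6 averaged 1.26 CPM with rAAV9-ST3GAL5.v1 and 0.211 CPM with AAV9.empty, and passed the filter on low counts through the rAAV9-ST3GAL5.v1 livers. The place of Il6 in this count and median therefore rests on its level in that group. Nfkbiz, a cofactor of NF-κB, was at 30.9 ± 9.35 CPM (SD, n = 3) against 7.29 ± 0.401 CPM (SD, n = 4), a log2 fold change of 2.07 (adjusted p = 0.000167). Il1b and Tnf, cytokines that switch the pathway on, had log2 fold changes of 4.01 (adjusted p = 0.0011) and 3.66 (adjusted p = 0.00262), and Tnfaip3, a feedback inhibitor, of 2.95 (adjusted p = 0.00307). Without replicate 2, 11 of the 12 were higher, with a median of 1.26, and Il6 was not called (adjusted p = 0.192). With the E332K vector 1 of 11 was higher (Il17ra, 0.36, adjusted p = 0.0219) and 1 lower (Tnfaip3, -0.65, adjusted p = 0.0451). The shares over all genes were 7.93% and 7.09% there. With rAAV9-ST3GAL5.v2 0 of 11 were called.

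Genes of the interferon-γ response, which drives Cxcl9 and Cxcl10, rose in part in the rAAV9-ST3GAL5.v1 group. Of 11 tested, 6 were higher and 0 lower than with AAV9.empty, with a median log2 fold change of 1.32. Over all genes, 13.8% were higher and 14.3% lower. The 4 with the smallest adjusted p were Jak2 (log2 fold change 1.04, adjusted p = 0.00057) and Ifngr2 (0.47, adjusted p = 0.00554), parts of the receptor complex, Irf1 (2.18, adjusted p = 0.0127), a transcription factor, and Gbp2 (3.31, adjusted p = 0.0157), a guanylate-binding protein. The others were Socs1 (3.35, adjusted p = 0.0168), a feedback inhibitor, and Gbp5 (3.24, adjusted p = 0.0268), although the 2 groups overlapped for Gbp5. Irf8, a transcription factor of myeloid cells (1.32, adjusted p = 0.069), Ciita, which switches on MHC class II genes (1.16, adjusted p = 0.183), Gbp3 (2.05, adjusted p = 0.0584), Jak1 (0.23, adjusted p = 0.0866) and Ifngr1 (0.14, adjusted p = 0.341) did not pass. Without replicate 2, 6 of the 11 were higher and 0 lower, with a median log2 fold change of 0.44. Gbp5 then missed the threshold (adjusted p = 0.0741), Ifngr1, a chain of the interferon-γ receptor, passed it (0.26, adjusted p = 0.0442), and Gbp2 (0.98, adjusted p = 0.000617), Irf1 (0.95, adjusted p = 0.000346) and Socs1 (1.10, adjusted p = 0.00623) stayed higher with smaller differences.

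Gbp2 was at 49.0, 575 and 38.4 CPM in the 3 rAAV9-ST3GAL5.v1 livers, against 21.9 ± 3.07 CPM with AAV9.empty (SD, n = 4). All 3 were above the AAV9.empty livers, and replicate 2 was far above the others. Ifng itself was not tested, with 0.536, 2.71 and 0.122 CPM against 0.185, 0.261, 0.107 and 0.242 CPM with AAV9.empty. Ido1, an interferon-induced enzyme, was not tested either.

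**Figure D5:**
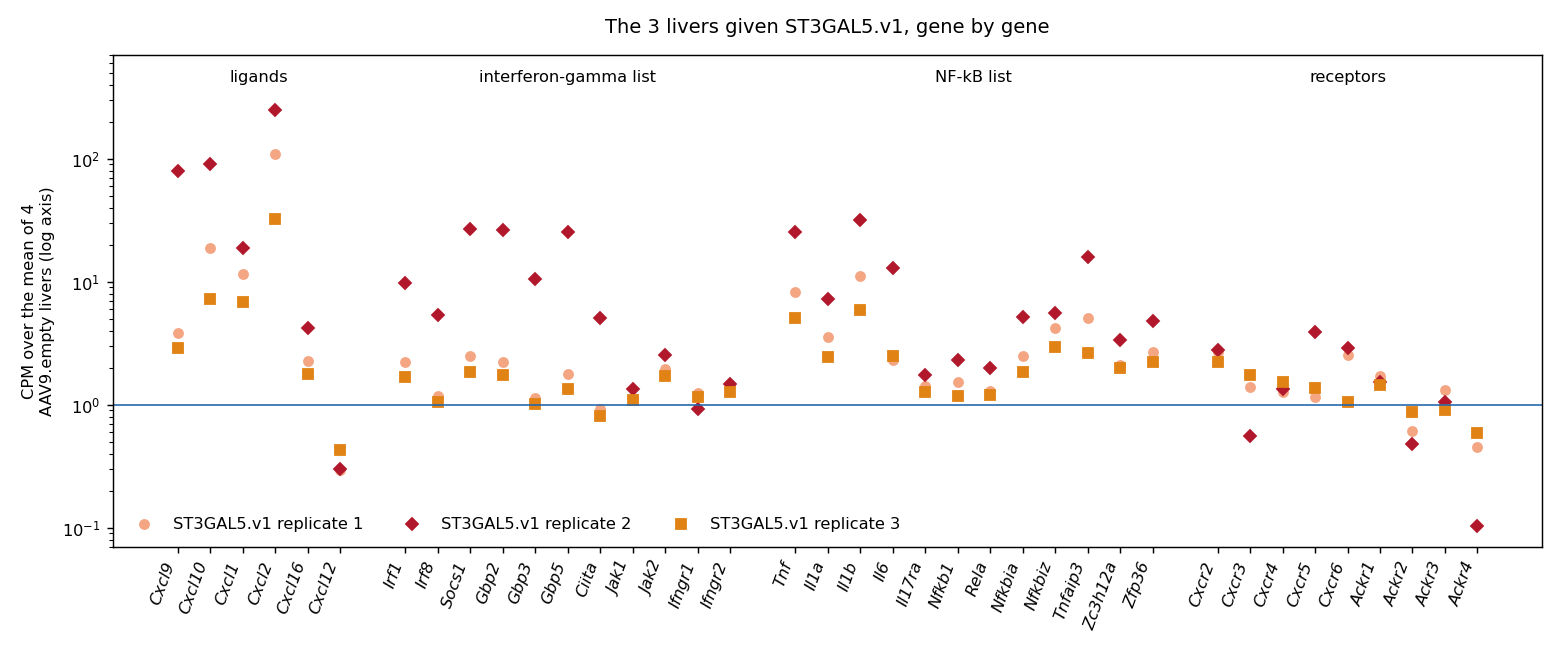
CPM of each of the 3 ST3GAL5.v1 livers over the mean of the 4 AAV9.empty livers (log axis, line at 1), for the 6 tested chemokines, the interferon-γ and NF-κB lists and the receptors. Replicate 2 (diamonds) is farthest from the other livers at Cxcl9 and at Gbp2, Gbp5 and Socs1.

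Replicate 2 of rAAV9-ST3GAL5.v1 differed more from its companions than they did from each other when all genes were counted, and Cxcl9 and Cxcl10 were among the genes with the highest ratios. Set against replicates 1 and 3 it gave a chi-square of 54.2 and 64.9 per gene, while replicates 1 and 3 gave 17.3. Values as high occurred in other groups. E332K replicate 3 gave 48.0 and 71.1, against 20.05 between its companions, and rAAV9-ST3GAL5.v2 replicate 2 gave 27.6, 51.8 and 46.7. Each gene was then expressed as the ratio of rAAV9-ST3GAL5.v1 replicate 2 to the mean of the other livers of its group. This covered 13490 genes with a mean of at least 1 CPM. The ratio was 23.6 for Cxcl9, which 7 genes reached or exceeded, itself included, and 6.91 for Cxcl10, which 60 genes did. It was 31.9 for Cxcl11, another interferon-induced ligand of Cxcr3, at 0.292, 9.22 and 0.285 CPM in the 3 livers. It was 13.1 for Gbp2 and 12.3 for Socs1, but 3.50 for Cxcl2, 2.05 for Cxcl1, 2.09 for Cxcl16 and 0.824 for Cxcl12.

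With the E332K vector 3 of the 11 interferon-γ genes were lower than with AAV9.empty and 0 were higher. They were Gbp3 (log2 fold change -1.46, adjusted p = 0.000308), Gbp2 (-0.90, adjusted p = 0.00052) and Gbp5 (-0.78, adjusted p = 0.0395). With rAAV9-ST3GAL5.v2, 2 of 11 were lower, Gbp2 (-0.70, adjusted p = 0.0147) and Jak1 (-0.31, adjusted p = 0.0233). Over all genes, 7.09% were lower with the E332K vector and 2.5% with rAAV9-ST3GAL5.v2. Cxcl10 was lower in both comparisons as well, and both share the AAV9.empty livers.

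Proteases that shed or clip CXC chemokines were also measured. With rAAV9-ST3GAL5.v1 against AAV9.empty, 5 of 7 were higher and 1 lower, with a median log2 fold change of 0.49. The shares over all genes were 13.8% higher and 14.3% lower. Ctsg, the neutrophil enzyme cathepsin G, had a log2 fold change of 1.09 (adjusted p = 0.000115), Mmp9, a gelatinase, of 0.52 (adjusted p = 0.00249), Elane, neutrophil elastase, of 0.49 (adjusted p = 0.00479), Mmp8, a neutrophil collagenase, of 0.55 (adjusted p = 0.00641) and Adam10, the main sheddase of Cxcl16, of 0.27 (adjusted p = 0.0413). Mmp8 and Elane are in the neutrophil list as well. Dpp4, which inactivates Cxcl9, Cxcl10 and Cxcl12 by clipping their amino terminus, was lower with rAAV9-ST3GAL5.v1 (-0.77, adjusted p = 0.00073), with the E332K vector (-0.51, adjusted p = 0.00618) and with rAAV9-ST3GAL5.v2 (-0.57, adjusted p = 0.00768). These 3 comparisons share the AAV9.empty livers, which had the most Dpp4 of the 6 groups, at 30.5 CPM on average against 26.5 CPM with PBS. Dpp4 averaged 18.0 CPM with rAAV9-ST3GAL5.v1, 21.6 CPM with the E332K vector, 20.6 CPM with rAAV9-ST3GAL5.v2 and 25.6 CPM with rAAV9.CB.EGFP. With rAAV9-ST3GAL5.v1 it was lower against PBS as well (-0.57, adjusted p = 0.00249).

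Of the other CXC ligands, 3 were higher in every rAAV9-ST3GAL5.v1 liver than in every AAV9.empty liver, Cxcl3, Cxcl5 and Cxcl11. All were at low levels, apart from Cxcl11 in replicate 2, and the share of all genes with this separation was not counted. Of 3 ligands tested with rAAV9-ST3GAL5.v1 against AAV9.empty, 1 was higher, Cxcl5, which draws neutrophils, with 0.83, 1.10 and 0.733 CPM against 0.417, 0.261, 0.214 and 0.533 CPM (log2 fold change 1.27, adjusted p = 0.0466). In this comparison 13.8% of all genes were higher. With 9, 5, 4 and 11 expected counts in the AAV9.empty livers, Cxcl5 passed the filter on low counts here through its level with rAAV9-ST3GAL5.v1. Its place in this count therefore rests on that group. Cxcl5 missed the threshold without replicate 2 (1.09, adjusted p = 0.169), and PBS livers had 0.509 to 0.874 CPM. The platelet chemokines Pf4 (-0.05, adjusted p = 0.704) and Ppbp (0.01, adjusted p = 0.947) did not pass and overlapped between the groups. Cxcl3 was detected at 0.341, 0.751 and 0.285 CPM in the rAAV9-ST3GAL5.v1 livers and had no count in any AAV9.empty, rAAV9.CB.EGFP or PBS liver. Cxcl11 had 0.292, 9.22 and 0.285 CPM, against at most 0.0927 CPM with AAV9.empty and 0.251 CPM with PBS. Cxcl3, Cxcl11, Cxcl15 and Cxcl17 were not tested.

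Across the 22 livers, each chemokine was matched to the genes whose levels ranked the livers most alike, by Spearman's rho over 13516 genes. The livers share their groups and their depth, so the values are descriptions. For Cxcl10 they were Gbp2 (0.925), Mpeg1 (0.894), which encodes perforin-2 of macrophages, and Wdr1 (0.872). For Cxcl1 they were Ccr1 (0.871), a receptor of CC chemokines, Zfp691 (0.816) and Khdc4 (0.804), and for Cxcl2 they were Cdk14 (0.842), the immediate-early gene Fos (0.800) and Ttc39b (0.782).

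Cxcl12 ranked the livers most like Nectin3 (0.867), a cell adhesion molecule, Hunk (0.855) and Mpzl2 (0.854). Cxcl9 came closest to Map2k1 (0.810), a kinase of the MAP kinase cascade, Tnfrsf23 (0.781) and Serping1 (0.754), the C1 inhibitor, and Cxcl16 to Bid (0.833), a proapoptotic protein, Ddx18 (0.779) and Tnfrsf1b (0.755), a receptor of TNF. Among the chemokines themselves rho was highest between Cxcl9 and Cxcl16 (0.558) and lowest between Cxcl1 and Cxcl12 (-0.582). For Cxcl9 and Cxcl10 it was 0.467 and for Cxcl1 and Cxcl2 it was 0.302, below the values of the genes most like each of them.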

How the data were processed

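The authors trimmed reads with Trimmomatic, aligned them with STAR to mm10 and counted them per gene with RSEM. The deposited expected counts are estimates of the reads of each gene, not scaled to depth, and the deposited TPM values take transcript length and depth into account. The GENCODE release is not given in the sources used here. Expected counts were rounded; 5.69% of values were not whole, and 27475 of 55291 genes had no count. CPM used TMM factors over all 22 libraries.

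The 9 comparisons were fitted as pairs of groups in R 4.3.3 with edgeR 4.0.16, by its quasi-likelihood test after filterByExpr and TMM. P-values were adjusted over all genes tested (Benjamini-Hochberg) and called up to 0.05. The script was tested on simulated data. The members and lists were chosen with earlier results of these data known. All 8 members were described. Of the lists, up to 4 genes by smallest adjusted p or any behind a count of 5 or fewer were named, mainly in comparisons with AAV9.empty. The genes behind some other counts are not named. Alternatives were DESeq2 1.42.0, its size factors, no filter, a minimum mean count of 10, a joint fit of the 6 groups, blocking on replicate number, robust dispersions, limma 3.58.1 on log2(TPM + 1) or log2(TPM + 0.1), above a mean of 1 TPM or unfiltered, a fold change of at least 2, the presence of Gm47283 and each library left out. The gene lists were refitted without rAAV9-ST3GAL5.v1 replicate 2, an alternative chosen after seeing the data. Positions come from GENCODE on GRCm38, and promoters from RefSeq, with 7 of 8 genes matched. A gene was taken out of the interferon-γ list and its counts, and is not reported here. The transcript of human ST3GAL5 was not analysed here, and mouse St3gal5 was at 115 to 182 CPM with rAAV9-ST3GAL5.v1 and 176 to 191 CPM with AAV9.empty. Replicates of a group differed by more than sampling noise, with a chi-square of 7.26 to 71.1 per gene. The limit given for a count of 0 covers counting error only, while the standard errors also reflect the spread among the livers compared.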

Additional observations from a re-analysis of the deposited data

Results flagged for a closer look

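In 2 of the 31 groups of 4 livers tested for an extreme value, 1 liver stood apart from the others by Dixon's criterion, which flags about 5% of groups by chance. Cxcl13 was at 0.0441 CPM in PBS replicate 1 and at 0 in the other PBS livers. Cxcl14 was at 0.0503 CPM in PBS replicate 2 and at 0 in the other PBS livers. Each value is 1 expected count, below the limit that a count of 0 allows in these libraries.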

How the results depend on the processing

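The directions of Cxcl1, Cxcl2, Cxcl9, Cxcl10, Cxcl12 and Cxcl16 in the 5 comparisons of rAAV9-ST3GAL5.v1 were kept under every alternative run. The number of chemokines higher moved by over 1.5 times with limma on unfiltered log2(TPM + 0.1), to 3 against AAV9.empty, 2 against rAAV9.CB.EGFP and 3 against the E332K vector (0 lower), and with the presence of Gm47283, to 1 against AAV9.empty. That covariate could not be fitted against PBS or the E332K vector. It was fitted against rAAV9.CB.EGFP and rAAV9-ST3GAL5.v2, where Cxcl1, Cxcl10 and Cxcl12 passed under every alternative, this covariate included. Cxcl9 and Cxcl16 did not pass under all of them in either comparison, nor did Cxcl2 against rAAV9.CB.EGFP. Leaving out a library gave 3 to 5 higher against the E332K vector, with 3 without E332K replicate 3. For the E332K vector against AAV9.empty the number lower was 1 with all 6 groups in one fit, 0 with unfiltered limma and 1 with a fold change of at least 2. For rAAV9-ST3GAL5.v2 it was 0 under those 3 settings and 0 to 1 with a library left out. The causes were not tested.

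Uncalled values near 0 turned in sign. These were, on the log2 scale, Cxcl9 for rAAV9.CB.EGFP with limma (0.0095 on log2(TPM + 1), 0.0005 on log2(TPM + 0.1), filtered or not), Cxcl16 for rAAV9-ST3GAL5.v2 with Gm47283 (0.0278) and Cxcl12 for AAV9.empty over PBS with limma (0.0375 on log2(TPM + 1), 0.0378 on log2(TPM + 0.1), filtered or not). With a library left out, Cxcl9 ranged from -0.0398 to 0.30 for the E332K vector, -0.42 to 0.0083 for rAAV9-ST3GAL5.v2 and -0.0131 to 0.31 for AAV9.empty over PBS, Cxcl16 from -0.13 to 0.0387 for rAAV9-ST3GAL5.v2, and Cxcl12 from -0.071 to 0.01 for AAV9.empty over PBS. Limma has no scaling beyond TPM, and its median over all genes reached 0.21 for rAAV9-ST3GAL5.v1 over the E332K vector, against 0.01 with edgeR. It also moved the split of all calls for rAAV9-ST3GAL5.v1 over AAV9.empty, to 1834 higher and 1092 lower on log2(TPM + 1), against 2049 and 2134 with edgeR. Cxcl9 missed the threshold in the 5 comparisons of rAAV9-ST3GAL5.v1 with limma and with a robust dispersion (adjusted p from 0.0617 to 0.14 for the robust dispersion).

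Livers with the same replicate number had correlations of -0.202 to 0.299, above 0.1 in 7 of 30 pairs, some of which share livers. Livers with different numbers were not compared, so this check cannot settle whether the numbers pair the livers. With the number as a block, Cxcl9 missed the threshold against AAV9.empty (log2 fold change 3.15, adjusted p = 0.0906), rAAV9-ST3GAL5.v2 (3.45, adjusted p = 0.0617) and the E332K vector (3.07, adjusted p = 0.0782), and all other calls of the 6 chemokines were kept. Over all genes, the block gave 1461 higher and 1663 lower for rAAV9-ST3GAL5.v1 over AAV9.empty and 574 and 498, against 1170 and 1046 without it, for the E332K vector. Low counts limit Cxcl2 outside rAAV9-ST3GAL5.v1, Cxcl13 and Cxcl14, and 3 livers limit each estimate for rAAV9-ST3GAL5.v1 and the E332K vector.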

Other observations

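Some cholangiocyte markers were higher in rAAV9-ST3GAL5.v1 livers, where 13.8% of all genes were higher and 14.3% lower than with AAV9.empty. Of 5 tested against AAV9.empty, 3 were higher, namely Spp1 (osteopontin, log2 fold change 1.96, adjusted p = 0.00018), Sox9 (a transcription factor of bile duct cells, 2.15, adjusted p = 0.0015) and Epcam (an adhesion molecule of epithelia, 1.27, adjusted p = 0.0317). The duct keratins Krt19 (0.14, adjusted p = 0.746) and Krt7 (-0.26, adjusted p = 0.369) did not pass and overlapped between the groups. The markers summed to 116 to 164 CPM with rAAV9-ST3GAL5.v1 and 40.7 to 61.2 CPM with AAV9.empty. Of 7 hepatocyte markers, 6 were lower (Alb, Apoa1, Ttr, Serpina1a, Apob, Hnf4a) and 1, Fgb of fibrinogen, was higher (log2 fold change 0.99, adjusted p = 0.00316).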
